A study of Rattus norvegicus with 6 samples.

Results

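The let-7 family of rat miRNAs was examined in rat primary sertoli cells. Its members were chosen by name: rno-let-7a, rno-let-7b, rno-let-7c, rno-let-7d, rno-let-7e, rno-let-7f, rno-let-7g, rno-let-7i, rno-miR-98 and rno-miR-3596a, in both arms of each hairpin. These 10 names were counted under 21 of the 734 mature miRNA entries of the deposited table: 9 entries for 5p arms, 11 for 3p arms and 1 for miR-3596a. One of the 3p entries holds 2 names joined by a comma, let-7a-1-3p and let-7c-2-3p, whose RefSeq sequences are identical. The miRNA-Seq experiment held 3 control samples and 3 samples treated with 0.5 mM 4-nonylphenol (4-NP), an alkylphenol with estrogen-like action, for 24 h. All 6 samples were primary sertoli cells, the somatic cells that nurse the germ cells in the seminiferous tubule, taken from the testes of 5 to 10-day-old Sprague-Dawley rats and cultured to passage 2. A sample had 20023200 to 23426742 reads on mature miRNAs, of which miR-21-5p alone took 62.0 to 63.9%. Levels are given as CPM, a count scaled to the sample's total of mature miRNA reads, and differences are log2 fold changes of 4-NP over control from edgeR's quasi-likelihood test over all 549 miRNAs that passed its filter on low counts, which all 21 let-7 entries did. Each sample is a culture of many cells, so fewer cells of a type and less RNA per cell cannot be told apart.

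A let-7 miRNA is cut from a hairpin precursor. The 5p arm is usually the guide strand, which is loaded into an Argonaute protein and pairs through its seed, bases 2 to 8, with target mRNAs, whose translation and stability it lowers. The 3p arm is usually the passenger strand, most of which is degraded. The family is known for rising as cells differentiate and for repressing growth genes such as Hmga2, Lin28 and Ras, and the Lin28 proteins in turn block the processing of let-7 precursors.

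The mature 5p sequences show why the family is read as a unit and where its members differ. They are RNA sequences from RefSeq (assembly GRCr8), written 5′ to 3′, and the capitals mark the seed.
rno-let-7a-5p: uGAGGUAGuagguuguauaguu
rno-let-7b-5p: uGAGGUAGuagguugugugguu
rno-let-7c-5p: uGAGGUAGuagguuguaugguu
rno-let-7d-5p: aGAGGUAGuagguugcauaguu
rno-let-7e-5p: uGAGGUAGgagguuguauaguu
rno-let-7f-5p: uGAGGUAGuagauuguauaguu
rno-let-7g-5p: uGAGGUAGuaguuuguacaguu
rno-let-7i-5p: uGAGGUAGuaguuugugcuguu
rno-miR-98-5p: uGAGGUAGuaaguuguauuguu

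All 9 carry the seed GAGGUAG, and they were the only 9 of the 693 mature names in the RefSeq table that did. Outside the seed, each differs from let-7a-5p by 1 to 4 bases. With the base of let-7a-5p first, the position counted from 1 at the 5′ end and the base of the other member last, let-7c-5p differs by A19G, let-7e-5p by U9G and let-7f-5p by G12A. A pair of differences separates let-7b-5p (A17G and A19G), let-7d-5p (U1A and U16C), let-7g-5p (G12U and U18C) and miR-98-5p (G11A and A19U) from let-7a-5p. The most distant was let-7i-5p, with G12U, A17G, U18C and A19U. Because 1 base separates several of these names, a read with a base error could be counted under a neighbouring name, and how the counting treated such reads is not given in the sources used here.

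The remaining member, miR-3596a, does not share this seed. It is annotated on the minus strand of chromosome 8 at exactly the place of the let-7a-5p of hairpin let-7a-2 on the plus strand (GRCr8, chr8:50805219-50805240), so its sequence is the exact reverse complement of let-7a-5p, with the seed ACUAUAC.
rno-let-7a-5p: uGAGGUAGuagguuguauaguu
rno-miR-3596a: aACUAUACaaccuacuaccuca

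These names held the widest movement in the family. Under let-7a-5p, the controls had 75439, 53392 and 53251 reads and the 4-NP samples had 1929, 4113 and 65192. Replicates 1 and 2 of the 4-NP group were far below every control, while replicate 3 lay within the controls. Under miR-3596a, the controls had 2795, 6106 and 2102 reads and the 4-NP samples had 63048, 52410 and 986. Here 4-NP replicates 1 and 2 were far above every control and replicate 3 was below all of them. The share of miR-3596a in the sum of the 2 names was 3.57, 10.3 and 3.80% in the controls and 97.0, 92.7 and 1.49% after 4-NP.

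**Figure D1:**
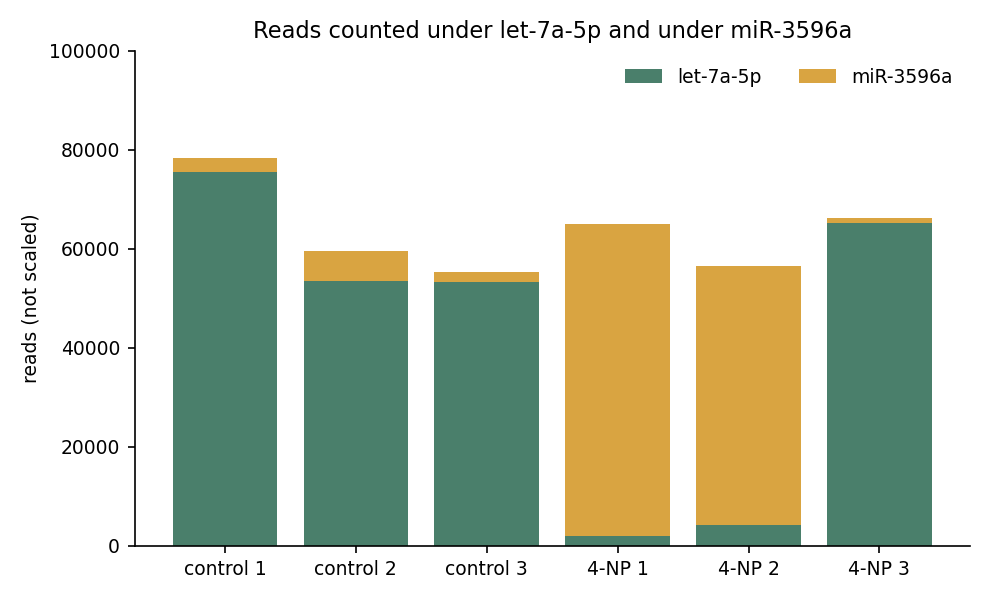
Reads (y axis, not scaled by depth) counted under let-7a-5p (green) and under miR-3596a (yellow, stacked on top) in each of the 3 control and 3 4-NP samples (x axis). In 4-NP samples 1 and 2, miR-3596a made up 97.0 and 92.7% of the stack, against 1.49 to 10.3% in the other samples, while the height of the whole stack stayed between 55353 and 78234 reads.

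Counted separately, let-7a-5p had a log2 fold change of -1.24 (SE 1.22, adjusted p = 0.509) and miR-3596a one of 3.51 (SE 1.26, unadjusted p = 0.0292, adjusted p = 0.0977), neither past the adjusted threshold. By the study's thresholds, a fold above 2 or below 0.5 together with an unadjusted p under 0.05, miR-3596a was the single let-7 entry called higher. These values rested on 1 sample. Without 4-NP replicate 3, let-7a-5p fell by 4.21 (adjusted p = 0.00479) and miR-3596a rose by 4.08 (adjusted p = 0.00389) on the log2 scale.

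Added together, the 2 names had 78234, 59498 and 55353 reads in the control group, while the 4-NP samples had 64977, 56523 and 66178. The mean sum (± SD, n = 3 each) was 2800 ± 470 CPM in the controls against 2927 ± 100 CPM in the 4-NP samples, and the 4-NP samples lay inside the range of the controls. Its log2 fold change was 0.09 (SE 0.16, adjusted p = 0.721), with a 95% interval of -0.29 to 0.47, or a fold of 0.820 to 1.38. Ligation of separate adapters to the ends of an RNA keeps its strand, but how the authors' counting used strand is not given in the sources used here, and whether the shift lay in the cells or in the assignment of reads to these names was not tested. The sum is therefore used for let-7a where levels of the family are set side by side.

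Of the 5p arms, let-7i-5p and let-7f-5p were the most abundant. In the order control 1, 2 and 3, let-7i-5p had 7032, 6995 and 5315 CPM, and in the 4-NP samples 7380.3, 7466 and 7207 CPM. For let-7f-5p the controls had 7199, 5205 and 5441 CPM and the 4-NP samples 6433, 6419 and 6459.7 CPM. Next in mean level over the 6 samples came let-7c-5p (3722 CPM), let-7g-5p (3249 CPM) and the let-7a sum (2863 CPM), followed by let-7b-5p (1939 CPM) and let-7d-5p (1754 CPM). The lowest were let-7e-5p (642 CPM) and miR-98-5p (476 CPM), and the top of the order was 14.5 times the bottom. These arms are of the same length, but how evenly the library preparation recovers different sequences was not tested, so the order is one of read levels. An opposite-strand name that is no member, miR-3596c, overlaps let-7e-5p. With its reads added, let-7e would have a mean of 1348 CPM, still below let-7d-5p. Another such name, miR-3596d, overlaps let-7f-5p. With its reads added, let-7f would have a mean of 159306 reads a sample, above the 152570 reads of let-7i-5p. The order of let-7i-5p and let-7f-5p thus depended on whether miR-3596d was counted with let-7f-5p.

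Several neighbours in this order had overlapping ranges, and the number of samples in which the first was the higher is given beside each. The ranges of let-7i-5p and let-7f-5p over the 6 samples overlapped, with let-7i-5p the higher in 4 of 6 samples. Those of let-7c-5p and let-7g-5p overlapped (let-7c-5p higher in 5 of 6), as did those of let-7g-5p and the let-7a sum (let-7g-5p higher in 6 of 6) and of let-7b-5p and let-7d-5p (let-7b-5p higher in 4 of 6). The ranges of let-7f-5p and let-7c-5p, of the let-7a sum and let-7b-5p, of let-7d-5p and let-7e-5p, and of let-7e-5p and miR-98-5p did not overlap.

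**Figure D2:**
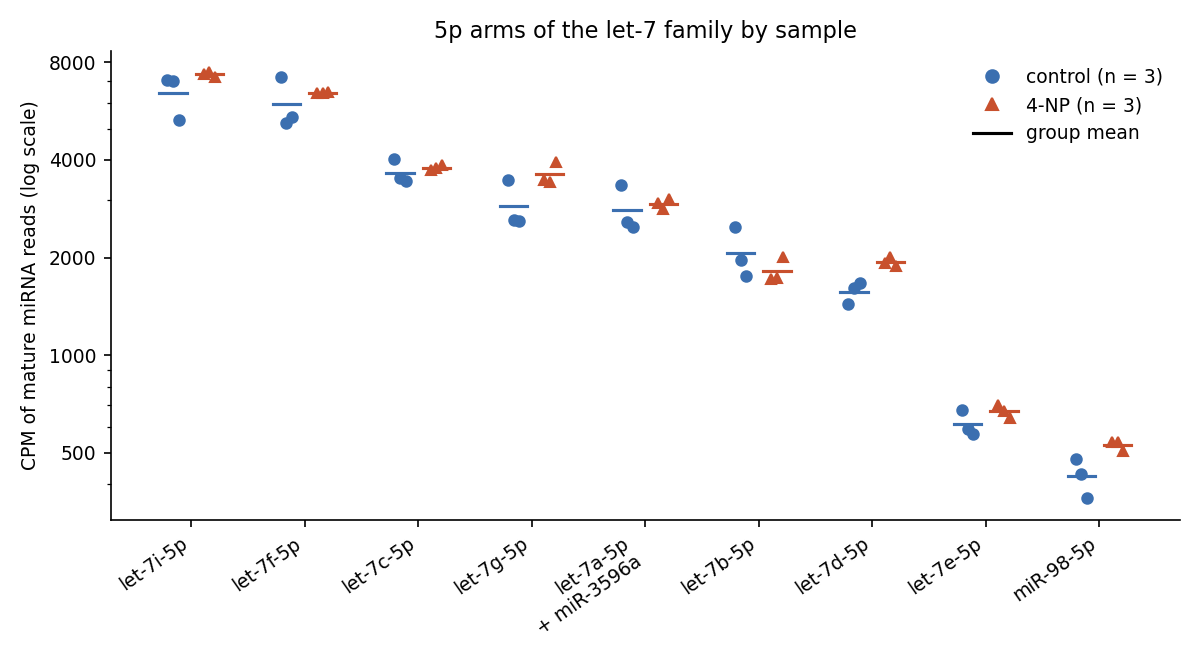
Level of each 5p arm (y axis, CPM of mature miRNA reads on a log scale) in the 3 control samples (blue circles) and the 3 4-NP samples (red triangles), ordered by mean level (x axis), with a line at each group's mean. Values ran from about 476 CPM for miR-98-5p to 6899 CPM for let-7i-5p on average, and the 4-NP points of let-7d-5p, let-7i-5p and miR-98-5p lay above all of their control points.

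No let-7 entry passed an adjusted p under 0.05 in edgeR's quasi-likelihood test: 0 of 21 were higher and 0 of 21 lower, where 7.47% of all 549 miRNAs tested were higher and 12.8% lower. At an unadjusted p under 0.05 there were 4 of 21, of which 3 were higher (let-7d-5p, miR-3596a and miR-98-3p) and 1 lower (let-7a-2-3p), where 35.7% of all miRNAs tested passed that limit. By the study's thresholds 1 of 21 was higher, against 5.83% of all miRNAs tested, and 0 of 21 lower, against 9.84%. DESeq2 called 1 entry at an adjusted p under 0.05, miR-3596a (0.0308), where it called 23.7% of all miRNAs tested. It gave let-7a-5p no adjusted p, so that entry could not be called there. Limma on log2(CPM + 1) called 0 entries, where it called 21.7% of all miRNAs. The CPM of the groups did not overlap for 6 of 21 entries (28.6%), 4 higher and 2 lower, against 42.4% of all miRNAs tested. On the TMM-scaled CPM of the test, 6 of 21 did not overlap either, against 43.4% of all, but let-7i-5p overlapped there and let-7e-3p did not. The median log2 fold change of the family was 0.10, beside -0.02 over all miRNAs tested.

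Without let-7a-5p, the other 8 guide arms had log2 fold changes of -0.20 to 0.30, of which 7 were above 0. Their widest 95% bounds were -0.65 and 0.74, which is a fold of 0.639 to 1.67. Differences of a fold of 2 or more in either direction thus lay outside the interval of each of these 8 arms.

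The 3 guide arms whose CPM did not overlap between the groups were all higher after 4-NP, where 89 of all 209 5p arms tested did not overlap. For let-7d-5p, the controls had 1438, 1606 and 1665 CPM and the 4-NP samples 1923, 2003 and 1887 CPM, a log2 fold change of 0.28 (SE 0.11, unadjusted p = 0.0419, adjusted p = 0.126). The controls of miR-98-5p had 479, 428 and 362 CPM and its 4-NP samples 540, 537 and 507 CPM (0.30, SE 0.15, adjusted p = 0.198). In let-7i-5p the gap was narrow, from 7032 CPM in the highest control to 7207 CPM in the lowest 4-NP sample (0.17, SE 0.12, adjusted p = 0.326), and with TMM scaling the groups overlapped. None of the 3 passed the adjusted threshold.

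In the other guide arms the groups overlapped. The value of let-7g-5p was 0.30 (SE 0.18, adjusted p = 0.275), with 3460.1, 2607 and 2593 CPM in the controls beside 3460.3, 3420.5 and 3955 CPM in the 4-NP samples. Control 1 and 4-NP replicate 1 had almost the same level of it. Only let-7b-5p had a value below 0 apart from let-7a-5p, at -0.20 (SE 0.18, adjusted p = 0.473), with 2476, 1960.4 and 1749 CPM in the controls beside 1716, 1731 and 2002 CPM in the 4-NP samples. The values of let-7e-5p (0.10, SE 0.14), let-7f-5p (0.08, SE 0.17) and let-7c-5p (0.03, SE 0.13) were within 1 SE of 0.

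**Figure D3:**
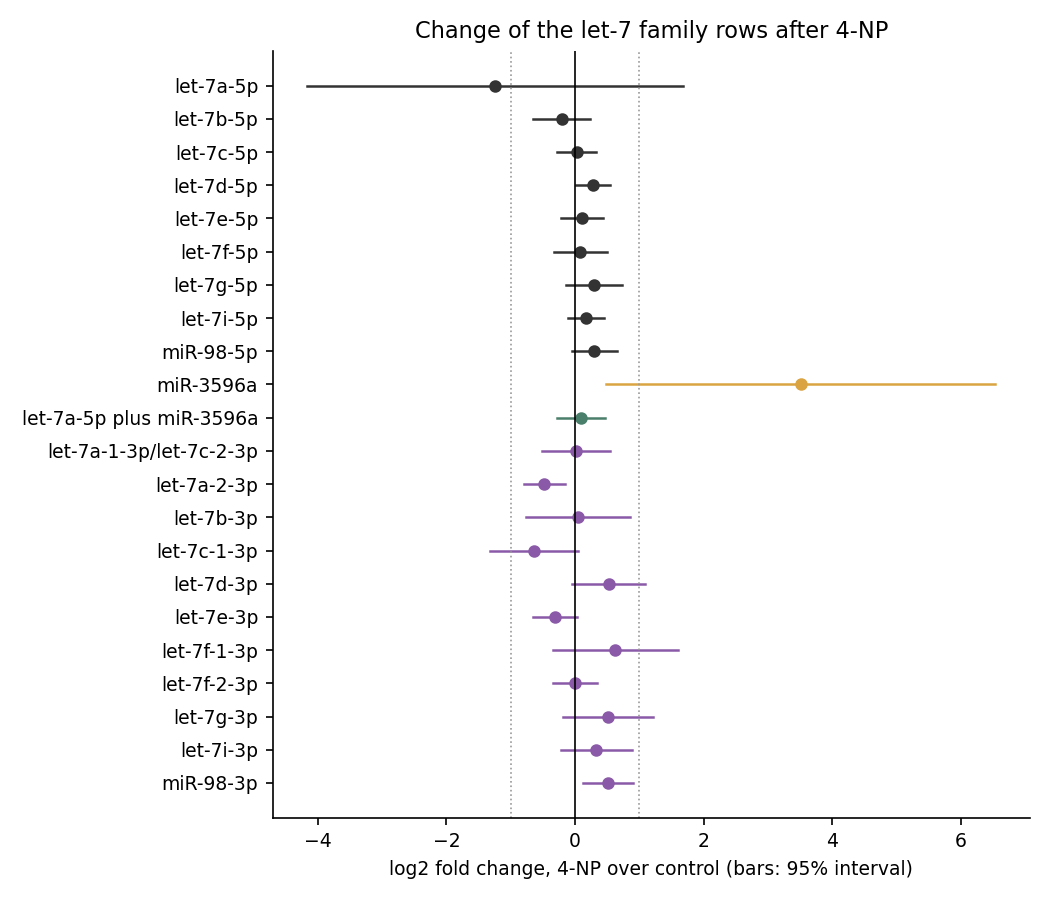
Log2 fold change of 4-NP over control (x axis) with its 95% interval (bars) from edgeR's quasi-likelihood test for each let-7 entry and for the sum of let-7a-5p and miR-3596a (y axis); black marks 5p arms, yellow miR-3596a, green the sum and purple 3p arms, and dotted lines mark a fold of 2 and 0.5. The intervals of let-7a-5p and miR-3596a are the widest, whereas their sum (0.09, -0.29 to 0.47) has an interval like those of the other guide arms.

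As a whole, the 5p arms together with miR-3596a took 3.01, 2.55 and 2.36% of the mature reads in the control group, with 2.88, 2.88 and 2.95% in the 4-NP group (2.64 ± 0.334% and 2.91 ± 0.0416%, SD, n = 3 each). The groups overlapped, with control 1 the highest of the 6 samples. Within these reads, let-7i-5p (24.4% in the controls, 25.3% after 4-NP) and let-7f-5p (22.5% and 22.1%) were the largest parts of both groups. For 4 of the 9 members the groups did not overlap in this share. The nearest figure over all miRNAs tested is the 42.4% whose CPM did not overlap. The share of let-7b-5p was 7.77 ± 0.416% in the controls and 6.24 ± 0.460% after 4-NP, and that of let-7c-5p was 13.9 ± 0.636% and 13.0 ± 0.0795%. The share of let-7g-5p was 10.9 ± 0.630% and 12.4 ± 0.841%, and that of miR-98-5p was 1.60 ± 0.0761% and 1.82 ± 0.0875%. Shares of a whole are bound to each other, since a higher share of any member leaves less for the rest, and they were given no test.

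**Figure D4:**
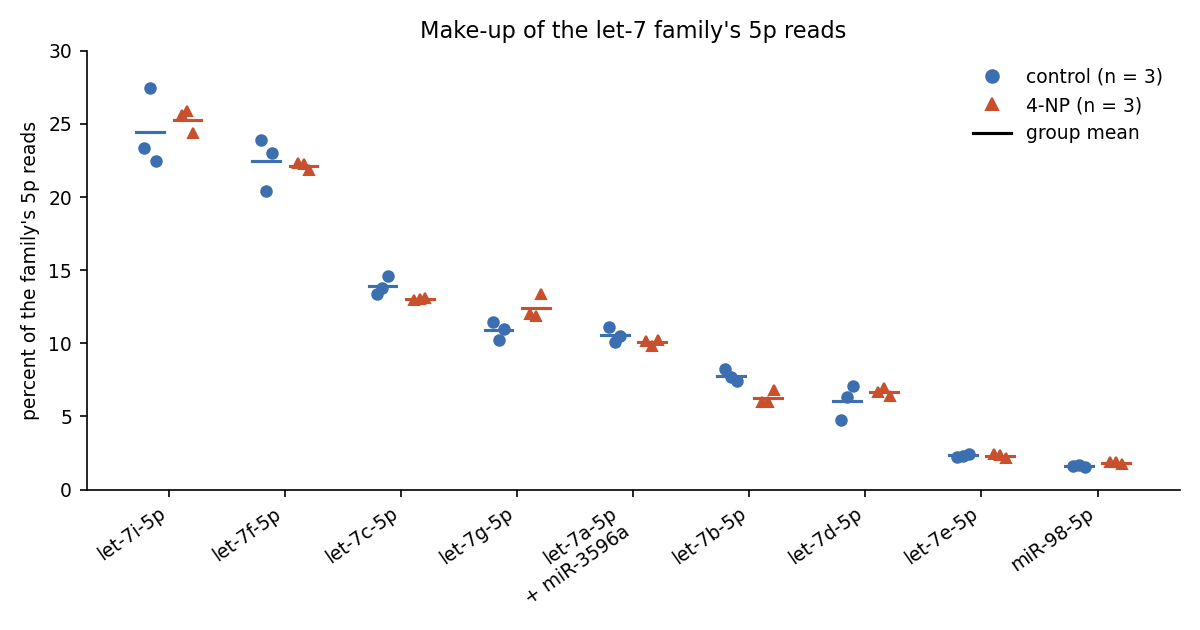
Share of each member in the family's 5p reads with miR-3596a (y axis, percent) in the 3 control samples (blue circles) and the 3 4-NP samples (red triangles), with a line at each group's mean. The groups of let-7b-5p (7.77 against 6.24% on average), let-7c-5p, let-7g-5p and miR-98-5p do not overlap, while let-7i-5p and let-7f-5p lead in both groups. Of all miRNAs tested, 42.4% did not overlap in CPM.

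The 3p arms were far scarcer. Their mean level over the 6 samples was 2.46 to 184 CPM, and together they made up 1.56, 2.89 and 2.44% of the family's reads in the control group, with 2.33, 2.08 and 2.33% in the 4-NP group. They are also less alike than the 5p arms, in seed and in sequence.
rno-let-7a-1-3p: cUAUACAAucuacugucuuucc
rno-let-7c-2-3p: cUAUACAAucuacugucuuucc
rno-let-7b-3p: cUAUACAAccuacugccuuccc
rno-let-7f-1-3p: cUAUACAAucuauugccuucc
rno-miR-98-3p: cUAUACAAcuuacuacuuucc
rno-let-7f-2-3p: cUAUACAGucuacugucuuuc
rno-let-7d-3p: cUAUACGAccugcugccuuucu
rno-let-7e-3p: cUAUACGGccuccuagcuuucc
rno-let-7a-2-3p: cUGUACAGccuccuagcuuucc
rno-let-7g-3p: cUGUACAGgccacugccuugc
rno-let-7i-3p: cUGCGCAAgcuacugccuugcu

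The first 5 of these names share the seed UAUACAA, let-7a-2-3p and let-7g-3p share UGUACAG, and the other 4 have a seed of their own. RefSeq sequences were matched for 21 of the 22 names, the exception being rno-let-7c-1-3p.

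The values of the 11 3p entries ran from -0.64 to 0.63, 8 above 0 and 3 below, with a median of 0.05 beside -0.08 over all 3p arms tested. Their widest 95% bounds were -1.32 and 1.59, a fold of 0.400 to 3.02, so the counts bound these arms less tightly than the guide arms. The 3 entries below 0 were let-7a-2-3p, let-7c-1-3p and let-7e-3p. For let-7a-2-3p the controls had 200, 193 and 172 reads, while 129, 126 and 128 remained in the 4-NP samples, and the groups were well apart (-0.47, SE 0.13, unadjusted p = 0.0109, adjusted p = 0.0528). Its adjusted p lay close to the threshold and fell under it in 3 other settings, the lowest 0.0273 with at least 10 counts in every sample. It was 0.16 with DESeq2, 0.110 with a replicate block, 0.103 with no filter and 0.0738 to 0.154 when each sample was left out. The reads of let-7c-1-3p, the scarcest arm, were 68, 71 and 65 in the control group, with 39, 56 and 28 in the 4-NP group (-0.64, SE 0.29, adjusted p = 0.165). Its groups did not overlap, but the 4-NP samples were spread wide, and without 4-NP replicate 2 it passed the threshold (-0.90, adjusted p = 0.0410). Without 4-NP replicate 3 its value was -0.42 (adjusted p = 0.332), and the other omissions gave adjusted p values of 0.266 to 0.322. The most abundant of the 3, let-7e-3p, had 2894, 4150 and 3414 reads in the control group, with 2799, 2557 and 2571 in the 4-NP group (-0.31, SE 0.14, adjusted p = 0.173).

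Of the arms above 0, miR-98-3p had 50, 71 and 54 reads in the control group beside 84, 76 and 75 in the 4-NP group, with no overlap (0.52, SE 0.16, unadjusted p = 0.0173, adjusted p = 0.0729). Both arms of miR-98 thus lay higher in every 4-NP sample than in any control, and neither passed the adjusted threshold. The highest value belonged to let-7f-1-3p (0.63, SE 0.40, adjusted p = 0.300), where 4-NP replicate 3 alone, with 2204 reads, was above the highest control, with 1450. Without that sample its value was 0.14 (adjusted p = 0.839), below those of miR-98-3p (0.54) and let-7i-3p (0.42). For let-7d-3p (0.52, SE 0.24, adjusted p = 0.165), let-7g-3p (0.51, adjusted p = 0.249) and let-7i-3p (0.33, adjusted p = 0.330) the groups overlapped. The joined entry of let-7a-1-3p and let-7c-2-3p (0.01), let-7b-3p (0.05) and let-7f-2-3p (0.00) had values near 0.

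Both arms come from the same precursor, so the reads of the 3p arm were next set against those of the 5p arm. Where a 5p arm comes from several hairpins, all its reads were used, and miR-3596a was added to let-7a-5p. The 3p reads ranged from 0.0331% of the 5p reads for let-7c-1 to 30.4% for let-7e, and let-7e had the highest value of the 11 hairpins or pairs of hairpins in every sample. In let-7e it was 25.1 ± 6.21% of the 5p arm in the controls and 18.5 ± 0.452% after 4-NP. The groups overlapped, and the difference of the log2 ratio was -0.41 (exact two-sided permutation test, p = 0.3, n = 3 each). With miR-3596c added to the 5p reads, a setting chosen after seeing the data, the 3p arm was 9.77, 16.1 and 13.4% in the controls and 9.04, 8.65 and 6.98% in the 4-NP samples. The groups then did not overlap (log2 difference -0.65), and let-7e still had the highest value of all hairpins in every sample.

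Among 11 hairpin ratios tested, let-7a-2 was the one in which the groups did not overlap. Its 3p arm was 0.297 ± 0.0364% of the 5p reads in the controls and 0.205 ± 0.0158% after 4-NP, a log2 difference of -0.53 with an exact permutation p = 0.1. This direction rests on counting miR-3596a with the 5p reads: against let-7a-5p alone the difference was 2.34. The p of 0.1 is the smallest p that 3 samples against 3 can give, so no ratio could pass a threshold of 0.05, and none would after adjustment. Arm ratios were computed for the let-7 hairpins only, so no share over all hairpins can be set beside the count without overlap. In let-7c-1 the log2 difference was -0.73 (exact permutation p = 0.2). The other 8 differences were between -0.10 (let-7f-2) and 0.45 (let-7f-1), each with an exact permutation p of 0.4 or more.

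**Figure D5:**
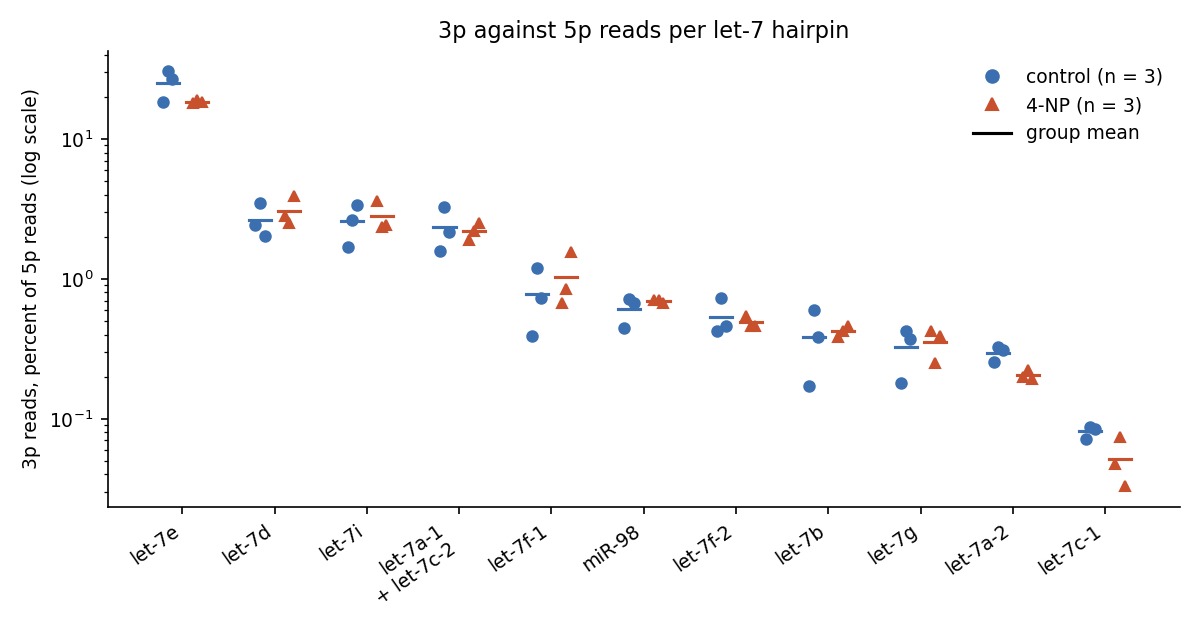
Reads of the 3p arm as a percent of those of the 5p arm (y axis, log scale) for each let-7 hairpin or pair of hairpins with the same 3p sequence (x axis), in the 3 control samples (blue circles) and the 3 4-NP samples (red triangles), with a line at each group's mean. The values run from 30.4% for let-7e to 0.0331% for let-7c-1, and only for let-7a-2, with miR-3596a counted among its 5p reads, do the 4-NP points (0.205% on average) all lie below the control points (0.297%).

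Several let-7 hairpins lie in clusters with one another or with other miRNAs. In GRCr8, let-7a-1, let-7f-1 and let-7d lie together on chromosome 17, let-7c-2 and let-7b on chromosome 7, and let-7f-2 and miR-98 on chromosome X. A further 3 hairpins each lie on the same strand as members of the miR-99/100 and miR-125 families: let-7e between miR-99b and miR-125a on chromosome 1, let-7c-1 between miR-99a and miR-125b-2 on chromosome 11, and let-7a-2 between miR-100 and miR-125b-1 on chromosome 8. The 3 let-7 3p arms with values below 0 come from these hairpins. On the 5p side the values were above 0, at 0.10 for let-7e-5p, 0.03 for let-7c-5p and 0.09 for the let-7a sum. Of these, let-7c-5p and let-7a-5p also come from other hairpins. Whether the place in a cluster bears on these values was not tested.

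The 11 counted arms of these cluster partners were examined as well. At an adjusted p under 0.05 in edgeR's quasi-likelihood test, 0 were higher and 3 lower. Of all miRNAs tested, 7.47% were higher and 12.8% lower. All 3 lower partners were 3p arms, of which the partners have 6, while 35 of all 233 3p arms tested were lower. The reads of miR-125b-1-3p, from the cluster of let-7a-2, were 2410, 3419 and 2558 in the control group, with 1152, 920 and 1410 in the 4-NP group (-1.17, SE 0.20, adjusted p = 0.00777). From the cluster of let-7e, miR-99b-3p fell from 767, 903 and 632 reads to 430, 422 and 431 (-0.75, SE 0.13, adjusted p = 0.00777). Its neighbour miR-125a-3p fell from 156, 137 and 102 reads to 73, 52 and 83 (-0.84, SE 0.23, adjusted p = 0.0473). The call of miR-125a-3p was lost in 9 of 18 other settings (adjusted p up to 0.141), DESeq2, no filter and the replicate block among them, while the calls of miR-125b-1-3p and miR-99b-3p held in all 18. In each of the 3 the groups were apart, as in 4 of the 11 partners altogether, against the 42.4% of all miRNAs. These 4 were all 3p arms, and 107 of all 233 3p arms tested did not overlap. The others did not pass, with values from -0.79 for miR-125b-5p (adjusted p = 0.143) to 0.30 for miR-99a-3p. The place of miR-125b-5p is shared with an exact reverse complement named miR-3588, which held 77.4 to 91.3% of their joint reads. The 2 names together had 130613, 188070 and 156862 reads in the controls beside 174240, 128992 and 123316 in the 4-NP samples. The groups overlapped in this sum, which was not tested, so the values of miR-125b-5p alone cover only a part of these reads. Without 4-NP replicate 2, miR-125b-5p passed as lower (-1.18, adjusted p = 0.0237). No partner of let-7c-1 passed on all samples (miR-125b-2-3p had -0.15), nor did miR-100-3p (0.02). The median of the 11 was -0.15.

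Reads of let-7 precursors, counted apart from the mature arms, came to 544, 426 and 379 CPM in the controls beside 459, 442 and 352 CPM in the 4-NP samples, and the groups overlapped. The identity of the cells could be read only from miRNAs, since mRNA markers were not measured in these libraries. All 4 miRNAs listed for sertoli cells had reads, though miR-202-3p had none in 4-NP replicate 3. Their summed level was 1382 to 1897 CPM in the controls beside 1213 to 1404 CPM in the 4-NP samples, and 0 of 4 passed the test. The most abundant, miR-202-5p, was lower in every 4-NP sample than in any control (-0.48, adjusted p = 0.0858 in edgeR's quasi-likelihood test). In the others the groups overlapped, with -0.26 for miR-140-5p and -0.22 for miR-140-3p. The other arm, miR-202-3p, had a value of 0.75 (adjusted p = 0.725 in the same test). It had 9, 67 and 59 reads in the controls beside 89, 123 and 0 in the 4-NP samples. Among miRNAs of other cells, the 7 of blood summed to 19.5 to 51.3 CPM in the controls beside 67.7 to 640 CPM in the 4-NP samples (1 higher, miR-451-5p, which alone reached 628 CPM, while miR-142-3p and miR-142-5p had log2 fold changes of -0.67 and -0.37 and did not pass). The 2 of endothelium summed to 6325 to 7615 and 3234 to 3805 CPM (2 lower, both arms of miR-126a). The 6 of myoid or smooth muscle cells summed to 120615 to 136288 and 88402 to 96712 CPM (2 lower, miR-143-3p and miR-145-3p, while miR-1-3p had a value of 0.30 and did not pass). The 5 of germ cells summed to 150 to 167 and 162 to 197 CPM (4 higher, both arms of miR-34b and of miR-34c, while the most abundant, miR-449a-5p, had a value of -0.25 and did not pass), and the 1 of liver reached 0.538 CPM at most in the controls and 21.7 CPM after 4-NP. Beside these counts, 7.47% of all 549 miRNAs tested were higher and 12.8% lower. No listed miRNA was at 0 in all samples. The part of these differences in the let-7 values was not tested.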

How the data were processed

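Small RNA of 18 to 30 nt was taken from a gel, ligated to adapters with molecular identifiers and sequenced in 6 samples, 3 control and 3 4-NP, grouped by their labels. The authors deposited 1 table of raw read counts per small RNA, without normalization. The submitters' processing notes name HISAT2 and DESeq2. The miRNA database, genome build and use of strand are not given in the sources used here. The table's column for molecular identifiers was not used. Library size was the sum over 734 mature miRNAs. Rows that name no gene (3.52 to 5.91% of reads) were left out.

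Counts were tested with edgeR 4.0.16 (TMM, filterByExpr, quasi-likelihood F test, two-sided, Benjamini-Hochberg adjustment over 549 miRNAs) in R 4.3.3. The common dispersion was 0.118. The script was tested on simulated data. DESeq2 1.42.0, limma 3.58.1 on log2(CPM + 1) and log2(CPM + 0.1), other scalings, other filters on low counts, known miRNAs alone, a replicate block and the omission of each sample were alternatives. Arm ratios used a pseudocount of 0.5 reads. No label ties the samples to separate animals or cultures, so p-values measure the spread between these samples, which may be technical. The members, the lists and the genes to be named (all members, and the partners that passed) were chosen with earlier results of these data known. Sequences and neighbours within 60 kb came from RefSeq tables of GRCr8.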

Additional observations from a re-analysis of the deposited data

How the results depend on the processing

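The counts of let-7 entries with an adjusted p under 0.05 (0 higher and 0 lower in edgeR's quasi-likelihood test) moved by at most 1. The number higher was 1 with DESeq2 (miR-3596a), which gave let-7a-5p no adjusted p, and 0 to 1 when each sample was left out in turn. The number lower was 1 with limma on log2(CPM + 0.1), with at least 10 counts in every sample and with known miRNAs alone (let-7a-2-3p each time), and 0 to 1 when each sample was left out. Without 4-NP replicate 3, let-7a-5p (-4.21) passed as lower and miR-3596a (4.08) as higher. The number of cluster partners that passed was 2 to 3 in every setting, and miR-125a-3p was the one lost. Without 4-NP replicate 2 it was lost too, but miR-125b-5p, a 5p arm, passed as lower (-1.18, adjusted p = 0.0237 in edgeR's quasi-likelihood test). The sum of miR-125b-5p and its reverse complement miR-3588 was not tested.

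The labels give both groups replicates 1, 2 and 3, but same-numbered samples did not deviate together (correlations of -0.31, -0.27 and -0.02), so the numbers were not taken as pairs. With a replicate block, 0 let-7 entries were higher and 0 lower, 2 partners passed, and the let-7a sum had a value of 0.11 (adjusted p = 0.681). Over all miRNAs, 82 passed with the block and 111 without it.

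The let-7a sum ranged from -0.061 to 0.28 when each sample was left out, below 0 without control replicate 2 or 3, and from 0.02 to 0.12 otherwise. Without miR-3596a in the 5p reads, the arm ratio of let-7a-2 turned to 2.34 and that of let-7a-1 and let-7c-2 to 0.45. Leaving out each sample gave ratios of -0.28 to 0.25 for let-7a-1 and let-7c-2, -0.18 to 0.71 for let-7b, -0.25 to 0.14 for let-7f-2, -0.20 to 0.42 for let-7g and -0.12 to 0.38 for let-7i. Of the single entries, 5 with values near 0 changed sign. At 10 counts in every sample, the joined let-7a-1-3p and let-7c-2-3p came to -0.034, let-7b-3p to -0.0077, let-7c-5p to -0.011 and let-7f-2-3p to -0.044. With known miRNAs alone, the joined entry came to -0.0027 and let-7f-2-3p to -0.013. Leaving out each sample, the joined entry ranged from -0.15 to 0.20, let-7b-3p from -0.21 to 0.41, let-7c-5p from -0.064 to 0.13, let-7f-5p from -0.059 to 0.28 and let-7f-2-3p from -0.13 to 0.13. The cause of these changes was not tested. The scarcest arms, let-7c-1-3p and miR-98-3p, rest on means of 54.5 and 68.3 reads a sample.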

Other observations

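Other names on opposite strands also differed between samples in how their joint reads were divided. In GRCr8, 41 pairs of counted names overlap by at least 15 bases on opposite strands. Of those with a mean sum of at least 100 reads, 8 are exact reverse complements, and the share of the minus-strand name ranged over 13.9 to 95.8 percentage points between samples (median 89.1), with 6 of 8 over 50 points. In these 8 of 8 pairs the sum varied less between samples than either name. Of the other 25 pairs, whose ends are offset, the median range was 5.59 points and 2 exceeded 50, and the sum varied less than both names in 11 of 25. The samples with a high share were not all the same from pair to pair. The share of miR-3570 in its sum with miR-181a-1-3p was 1.54, 18.5 and 79.4% in the controls and 97.3, 81.7 and 1.80% after 4-NP, so the 4-NP samples followed those of let-7a while control 3 did not. The offset pair of miR-183-5p and miR-3553 was alike, with a share of miR-183-5p of 10.9, 13.7 and 96.0% in the controls and 87.8, 79.6 and 2.03% after 4-NP. For miR-3578 beside miR-369-5p, it was 97.1, 1.33 and 37.9% in the controls and 2.67, 63.9 and 33.4% after 4-NP. These pairs were examined after the let-7a values were seen, and no test was made of them.

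Other let-7 members have such opposite-strand names too, which are not members here and whose ends are offset from the let-7 arm. The share of miR-3596b in its sum with let-7d-5p was 1.31 to 5.30%, that of miR-3596c beside let-7e-5p was 46.6 to 62.0%, and that of miR-3596d beside let-7f-5p was 12.3 to 17.3%. With all 4 pairs summed, a setting chosen after seeing the data, the log2 fold changes of the sums in edgeR's quasi-likelihood test were 0.05 for let-7a, 0.27 for let-7d (adjusted p = 0.115), 0.36 for let-7e (adjusted p = 0.145) and 0.15 for let-7f (adjusted p = 0.600).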
